A study of Rattus norvegicus and Mus musculus with 22 samples.

Results

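Secretory granule and exocytosis genes encode what endocrine cells store in dense-core granules and the proteins that bring those granules to the plasma membrane. The 38 genes described here were chosen by name, and their symbols were matched without regard to case in each of the 6 deposited expression tables. All 38 were listed in every table, out of 24537 genes in the replicated mouse islet table and 17420 in the replicated rat INS-1 table. By role they fall into 6 granule cargo proteins, 5 peptide-processing proteins, 3 granule membrane proteins, 5 SNAREs, 13 docking and priming proteins and 6 synaptotagmins.

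In a beta cell, insulin and the granin proteins are packed into dense-core granules, where the prohormone convertases Pcsk1 and Pcsk2 and the carboxypeptidase Cpe trim the peptides. Rab3 and Rab27a and their effectors tether granules to the plasma membrane, Munc13 (Unc13a) and the complexins prime the SNARE complex of Vamp2, Snap25 and syntaxin 1A (Stx1a), and synaptotagmins couple fusion to calcium. A rise in cyclic AMP potentiates this secretion and also activates transcription through CREB and its coactivators, among them CRTC2 and the acetyltransferases p300 and CBP.

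The study measured RNA by sequencing in 22 libraries of 16 groups, with and without forskolin, a plant diterpene that activates adenylyl cyclase, at 10 µM for 2 h. In 3 systems there were 2 control and 2 forskolin libraries: cultured islets and hepatocytes of wild-type black6 mice, and INS-1, a rat insulinoma line. The other groups had 1 library each: islets from mice labelled as whole-body CRTC2 knockouts (control, forskolin) with wild-type islets beside them; INS-1 cells left untreated, given forskolin, or given forskolin with JQ1 (1 µM, 4 h), an inhibitor of BET bromodomain proteins, or with A-485 (10 µM, 4 h), an inhibitor of p300 and CBP; and AR42J, a rat line of acinar origin, carrying GFP or the beta cell transcription factor NeuroD1 (control, forskolin). Ages, numbers of mice and the way NeuroD1 and GFP were introduced are not given in the sources used here, and the wild-type libraries of the knockout table may be among those of the replicated islet table. Whether replicate libraries derive from different cultures or animals is not labelled, so p-values here measure the spread between these libraries and no more.

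The promoters of 4 genes that were past 2-fold higher with forskolin in the knockout table's wild-type islets (Vgf, Ptprn, Unc13a) or called higher in the authors' deposited islet table (Scg2) are shown first, since CREB binds the cyclic AMP response element (CRE) TGACGTCA and, more weakly, its core TGACG. RefSeq promoter sequences of the rat build GRCr8, from 250 bases before the annotated start to 50 after it, were given for 28 of the 38 genes, and both motifs were searched on both strands. Each stretch below is written 5′ to 3′ on the gene's strand, with the matches in capitals; a core on the other strand reads CGTCA. Syt4 met both criteria as well and had 2 cores, at -12 and -1, but its sequence is not shown. The 4 shown were picked as holding a match, so they do not measure how often responding genes hold one. The promoters are rat, whereas the genes were picked on mouse islets; of the 4 shown, Vgf alone was called in rat INS-1 cells.
Vgf, chr12:25277073-25277140, minus strand, full CRE at -90 from the start: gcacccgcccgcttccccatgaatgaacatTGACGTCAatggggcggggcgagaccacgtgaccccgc
Scg2, chr9:88256952-88257019, minus strand, full CRE at -123: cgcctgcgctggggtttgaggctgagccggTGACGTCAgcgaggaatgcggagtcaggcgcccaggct
Ptprn, chr9:84204920-84205021, minus strand, 2 cores, the first at -168: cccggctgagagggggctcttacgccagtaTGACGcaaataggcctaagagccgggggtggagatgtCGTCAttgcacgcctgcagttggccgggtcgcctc
Unc13a, chr16:18415787-18415878, minus strand, 3 cores, the first at -62: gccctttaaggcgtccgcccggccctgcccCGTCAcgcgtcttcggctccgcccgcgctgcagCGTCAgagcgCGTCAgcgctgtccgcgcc

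Vgf and Scg2 were the only 2 of the 28 promoters with the full CRE (7.14%), which 1.83% of all 33469 promoters of the table held. The core, which every full CRE also contains, was in 16 of the 28 (57.1%) and in 21.2% of all promoters. Base composition was not matched between the 2 sets. The E-box CAGATG, a motif that NeuroD1 can bind, was in 4 of the 28 (14.3%; Scg5, Chgb, Stx1a and Cadps) against 16.6% of all. A match is a run of letters, and binding was not measured.

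Levels between genes are compared in FPKM, the fragment count scaled to exon length and library size, in the tables with 1 library per group. In untreated wild-type islets the granin Chga stood highest of the 38 genes at 8791 FPKM, followed by Pcsk2 at 1382 and the granin Scg2 at 1299. Untreated INS-1 cells shared Chga at the top (5196 FPKM), followed by the granin Chgb (1656) and Cpe (1328). AR42J cells with GFP held Chgb at 905, Chga at 587 and Cpe at 341 FPKM, while Pcsk1, Pcsk1n, Sytl4 and Syt1 were listed at 0 there. The zinc transporter Slc30a8, which loads zinc into insulin granules, set the sources apart, at 466 FPKM in islets, 341 in INS-1 and 0.738 in AR42J. In the rat tables Pcsk1n, the inhibitor of Pcsk1, was listed at or near 0, and Pcsk1 in the inhibitor table stood at 0.07 of the level that the replicated INS-1 table gives per length, relative to the median of the 38 genes. Pcsk1 is therefore not ranked against other genes in the rat FPKM tables, and its values below are set side by side only between libraries of 1 table.

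Hepatocytes, which secrete constitutively, held few of these transcripts: 14 of the 38 genes were listed at 0 and 21 below 1 (log2) in all 4 libraries. Cpe (9.11 to 9.31), the amidating enzyme Pam (8.15 to 8.32) and the endosomal SNARE Vamp8 (8.49 to 8.77) were the only ones at 8 or more. Vamp8 and Syt1 were listed higher than in islets, where Vamp8 ran from 5.87 to 6.26; the 2 tables were normalised separately. None of the 38 genes was called in the authors' deposited table for hepatocytes, whose second control and forskolin columns are named against the order in the file header; no forskolin effect is drawn from it here.

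Library totals in the replicated tables ran from 3.07 to 3.88 megareads (M) in islets and from 2.08 to 5.33 M in INS-1, with 1 INS-1 control total not given. Reads estimated for the 1-library tables ran from 2.14 to 5.64 M, except for 0.609 M in knockout islets with forskolin. The cyclic AMP response was present in both replicated systems: Crem, a CREB-family repressor gene that CREB induces, went from 6.42 and 6.52 to 10.16 and 9.97 in islets and from 8.35 and 8.97 to 11.51 and 11.36 in INS-1 (log2). Ins2 was at 18.29 to 18.73 in all 4 islet libraries, and Ins1 at 15.86 to 17.03 in INS-1. The first forskolin library of islets stood apart: all 9 hepatocyte markers measured were higher than in the first control, with a median difference of 2.74, and Alb was at 11.97 against 7.86 to 8.77 in the other 3. In that library the summed hepatocyte marker level was 9380 against 3834 to 4040 in the other 3, with no marker at 0, and the beta cell markers had a median difference of -0.49; for the second libraries the 2 medians were 0.07 and 0.30. The part of this library's other RNA in the islet results was not tested, and in bulk tissue fewer cells of a type and less RNA per cell cannot be told apart.

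In islets forskolin raised the synaptotagmin Syt4, and no other gene of the 38 passed limma's test at an adjusted p of 0.05 (n = 2 libraries per group; adjusted over all 13656 genes tested). Higher calls made up 1.72% of all genes and lower calls 0.242%, and no granule or exocytosis gene was called lower. At an unadjusted p under 0.05 there were 6 of the 38 genes, against 14.5% of all genes, and of the 6 the Rab effector Rph3al was the only lower one. The authors' deposited table called 3 higher (Vgf, Syt4 and Scg2) and 0 lower, against 2.83% and 0.369% of all its genes. Its log2 fold changes for these 3 were 2.63, 2.18 and 1.07, larger than the limma values given below. The median change of the 38 genes was 0.05 on the log2 scale against 0.01 for all genes, and it was -0.12 under quantile normalisation.

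Syt4, an atypical synaptotagmin found on dense-core granules (mm10 chr18:31437808-31447415), was at 8.53 and 8.60 in the islet controls and at 10.39 and 10.07 with forskolin. Both forskolin libraries thus lay well above both controls, a 3.18-fold rise (log2 1.67, SE 0.246, limma adjusted p = 0.0177). With either control left out the size stayed at 1.64 or 1.70 while the limma adjusted p became 0.151 or 0.148.

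Vgf, a granin-like precursor of secreted peptides (chr5:137030295-137033351), was at 8.64 and 8.02 in the controls and at 9.60 and 11.08 with forskolin. The groups did not overlap, but the 2 forskolin libraries differed from each other by more than the first did from its nearest control, and the 4.03-fold difference missed the threshold (log2 2.01, SE 0.469, limma adjusted p = 0.0910). It passed at a group mean of at least 5 (limma adjusted p = 0.0363) and when the first control, the first forskolin or the second forskolin library was left out, with log2 differences of 2.32, 2.75 and 1.27. Without the second control it was 1.70 (limma adjusted p = 0.189).

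Among the other cargo genes, Scg2 (chr1:79434669-79440090) read 12.41 and 12.81 without and 13.68 and 13.25 with forskolin, a non-overlapping difference of 0.85 (SE 0.283, limma adjusted p = 0.221). Chga overlapped fully, with 15.26 and 14.96 in controls and 14.20 and 15.73 with forskolin; its lowest value lay in the library with the hepatocyte markers. Chgb went from 11.77 and 11.66 to 12.01 and 12.19, a difference of 0.38 that did not pass. Of the 6 cargo genes 5 were positive and 0 passed.

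The peptide-processing enzymes gave no call. Pcsk1, the first convertase to act on proinsulin, was at 10.32 and 10.07 in controls and 10.88 and 10.64 with forskolin (difference 0.56, SE 0.253, limma adjusted p = 0.369). Pcsk2 overlapped (13.86 and 13.56 against 13.41 and 13.98), and Cpe did too (11.17 and 11.65 against 11.94 and 11.52; difference 0.32, -0.063 under quantile normalisation). On the granule membrane, Slc30a8 sat within 10.62 to 10.77 in all 4 libraries. Ptprn, the phosphatase-like granule protein known as the autoantigen IA-2 (chr1:75247041-75264208), read 11.61 and 11.19 without and 11.46 and 12.39 with forskolin, so the groups overlapped.

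No gene of the fusion and docking machinery other than Syt4 passed the test in islets. Of the 5 SNAREs and 13 docking proteins 0 passed, with differences from -0.74 for Rph3al to 0.76 for Unc13a. Unc13a, the Munc13 priming factor (chr8:71626712-71671757), was at 8.26 and 7.87 in controls and at 8.40 and 9.26 with forskolin, its second forskolin library well above the rest. Without the first forskolin library 4 of the 38 genes passed, all higher (Syt4, Vgf, Ptprn and Unc13a), against 5.65% of all genes called higher and 0.820% lower in that fit. Without the second forskolin library 6 passed higher and 4 lower, against 13.7% and 7.04% of all genes. Across the 38 genes 13 had both forskolin libraries above both controls and 6 both below, against 23.0% and 23.2% of all genes. In 16 genes the same-numbered differences pointed opposite ways, and the share of all genes doing so was not counted.

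**Figure D1:**
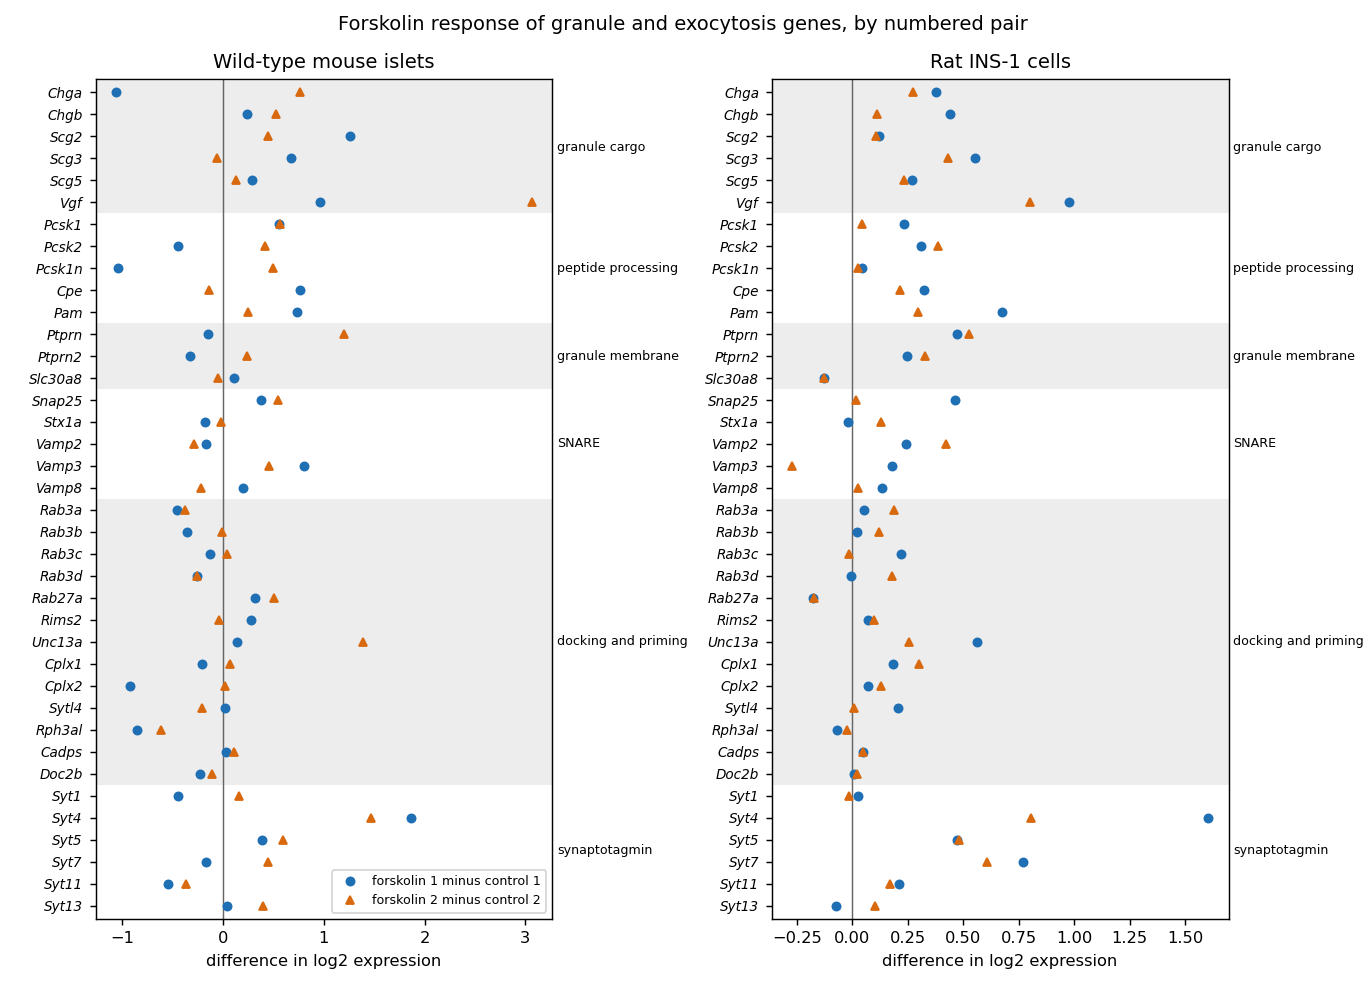
Difference in log2 expression between each forskolin library and the control with the same number (horizontal axis) for the 38 genes grouped by role, in islets (left) and INS-1 cells (right); the numbers are not known to mark shared cultures. Syt4 and Vgf lie to the right of 0 for both symbols in both panels, while Chga in islets has 1 symbol on each side.

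In INS-1 cells forskolin raised 3 of the 37 genes tested, Syt4, Vgf and the calcium sensor Syt7, and lowered none (limma, n = 2 libraries per group, adjusted over all 10345 genes tested). The background was 3.07% of all genes called higher and 1.24% lower; 8 of the 37 genes were under an unadjusted p of 0.05, all of them positive, against 17.3% of all genes in either direction. The authors' deposited table called the same 3 genes higher and 0 lower, against 2.70% and 0.902% of its genes. Its log2 fold changes for Syt4, Vgf and Syt7 were 1.61, 1.23 and 0.96, larger than the limma values given below. Pcsk1n was under the minimum level and was not tested.

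Vgf (rn6 chr12:22677607-22680630) was at 10.75 and 10.83 in the INS-1 controls and 11.73 and 11.63 with forskolin. The 2 groups were tight and well apart, a 1.85-fold rise (log2 0.89, SE 0.149, limma adjusted p = 0.00552); without the first control the adjusted p was 0.0699. Syt4 (chr18:24172580-24181989) went from 8.80 and 9.26 to 10.40 and 10.06, again without overlap, a 2.30-fold rise (log2 1.20, SE 0.185, limma adjusted p = 0.00351). Syt7, the high-affinity calcium sensor of granule fusion (chr1:226435979-226493247), went from 9.71 and 9.72 to 10.48 and 10.33, a 1.61-fold rise (log2 0.69, SE 0.145, limma adjusted p = 0.0206). Its call was lost under quantile normalisation (log2 0.50, adjusted p = 0.0608) and without either control or the first forskolin library (adjusted p = 0.140, 0.132 and 0.105). In islets Syt7 read 10.05 and 10.13 in controls and 9.87 and 10.58 with forskolin, with overlap.

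The other INS-1 genes leaned upwards by small amounts. Of the 37 genes 33 had a positive difference (22 under quantile normalisation), with a median of 0.14 against 0.00 for all genes. In 19 genes both forskolin libraries lay above both controls and in 1, Rab27a, both below, against 23.8% and 24.6% of all genes. The beta cell markers leaned the same way, with 6 of 7 positive and median differences of 0.30 and 0.41 for the 2 numbered pairs; their part in the lean was not tested.

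Ptprn came closest to a call in INS-1 among the genes that missed it, from 10.60 and 10.68 to 11.07 and 11.21 (difference 0.50, SE 0.149, limma adjusted p = 0.0973). Chga (14.59 and 14.67 to 14.97 and 14.95) and Chgb (13.88 and 14.06 to 14.32 and 14.17) both separated without passing, with differences of 0.33 and 0.27, which were 0 for both genes under quantile normalisation. That setting gives equal ranks equal values in every library. A 0 there cannot tell a flat gene from one that rose without changing rank. Scg2 read 10.64 and 10.56 without and 10.75 and 10.66 with forskolin, a difference of 0.11. Of the processing enzymes, Pcsk1 went from 10.39 and 10.38 to 10.63 and 10.42, Pcsk2 from 11.67 and 12.04 to 11.98 and 12.43, and Cpe from 12.47 and 12.50 to 12.79 and 12.72, a difference of 0.27 that was -0.049 under quantile normalisation. None of the 3 passed. Slc30a8 was slightly lower, at 9.90 and 10.04 against 9.78 and 9.91, and its groups overlapped; the 5 SNAREs and 13 docking proteins ran from -0.18 (Rab27a) to 0.41 (Unc13a) with 0 called.

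**Figure D2:**
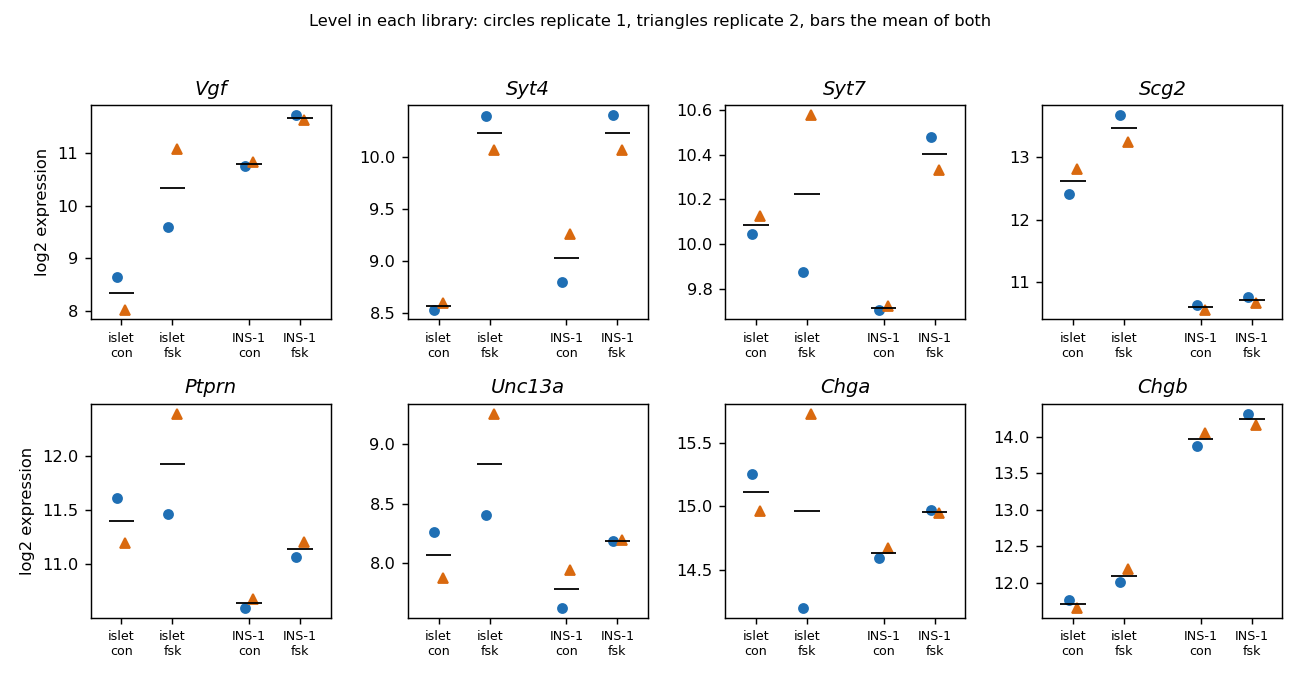
Log2 expression of 8 genes in each islet and INS-1 library (circles replicate 1, triangles replicate 2, bars the mean of both), with a separate vertical scale per gene; islet and INS-1 tables were normalised separately. Syt4 and Vgf separate by treatment in both systems, Syt7 in INS-1, and Chga overlaps in islets.

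Beyond the 38 genes, 103 further exocytosis and neuropeptide genes were listed, of which 87 were tested in islets and 76 in INS-1. In each system 2 were called higher and 0 lower by limma: Vamp1 (log2 1.43, adjusted p = 0.0280) and the peptide hormone Cck (1.27, adjusted p = 0.00858) in islets, and the vesicle protein Sv2c (1.06, adjusted p = 0.00660) and Cck (1.06, adjusted p = 0.00876) in INS-1. Of all genes, limma called 1.72% higher and 0.242% lower in islets, and 3.07% and 1.24% in INS-1. The medians of the further genes were 0.05 and 0.08.

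The knockout table asks whether the forskolin response of these genes needed CRTC2, with 1 library per group and therefore no test. Crtc2 itself was at 18.7 FPKM in wild-type islets and 13.9 with forskolin, and at 7.77 and 9.58 in the islets labelled knockout: lower, but not absent. The labels do not give the deleted part of the gene. As the wild-type libraries here may be among the replicated islet libraries, their ratios are no separate check of the replicated islet result. Chga rose in them, and its differences in the numbered islet pairs were -1.06 and 0.77. Their hepatocyte marker medians, given below, were close, and the median differences of the pairs were 2.74 and 0.07. Both resemble the second pair. Ins2 instead fell (807124 to 757933 FPKM), as in the first pair (18.71 to 18.29) and not the second (18.66 to 18.73). Whether these are the second pair's libraries was not tested. Acinar markers were lower in the libraries labelled knockout (12 of 13 listed; summed 306 and 1655 FPKM against 3440 and 6284 in wild type, with 0 or 1 marker at 0), and the median of the 9 hepatocyte markers was higher (22.8 and 126.6 FPKM against 2.59 and 2.66). The 9 beta cell markers, none at 0, summed to 908774 and 884530 FPKM in wild type and to 512790 and 1003320 in the libraries labelled knockout, without and with forskolin, with medians of 299.7 and 215 against 217 and 235. Their part in the differences below was not tested.

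The 4 genes past 2-fold higher with forskolin in wild-type islets, Vgf, Syt4, Unc13a and Ptprn, were past 2-fold in the islets labelled knockout as well. Of 35 genes at 1 FPKM or more in wild-type islets 4 were at least 2-fold higher with forskolin and 0 lower, against 9.85% and 7.07% of all genes; in the libraries labelled knockout it was 6 of 38 and 0, against 12.5% and 11.9%. Calls were made on log2 of (FPKM + 1), a scale on which low genes appear to change less than they did, and the ranges given are 95% intervals for counting error alone.

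Vgf had the largest ratio of the 38 genes in this table, going from 33.9 to 583 FPKM in wild type and from 24.9 to 376 in the libraries labelled knockout. The ratios were 17.2-fold (14.8 to 20.0) and 15.1-fold (13.2 to 17.3), so their counting ranges overlapped. Syt4 went from 36.9 to 148 and from 33.6 to 118 FPKM, 4.02-fold and 3.53-fold. Unc13a went from 10.9 to 38.6 and from 7.88 to 25.9, 3.55-fold and 3.29-fold, and Ptprn from 281 to 709 and from 208 to 435, 2.53-fold and 2.09-fold. All 4 were past 2-fold in both genotypes, each ratio somewhat smaller in the libraries labelled knockout. For Ptprn the smaller ratio lay below the wild-type counting range (2.40 to 2.66), and for Syt4 just below it (3.54 to 4.56). The difference between genotypes has no replicate check. In the replicated islets the differences of the numbered pairs were -0.15 and 1.20 for Ptprn and 0.14 and 1.39 for Unc13a. In the libraries labelled knockout Pcsk1n (209 to 529 FPKM) and Syt1 (1.13 to 4.09, on 31 and 12 estimated reads) were also past 2-fold. In wild type they went from 278 to 420 and from 1.52 to 2.05. Crem, the response check, went from 11.7 to 313 FPKM in wild type and from 8.87 to 153 in the libraries labelled knockout. Nr4a1, an immediate early receptor gene, went from 3.26 to 159 and from 7.09 to 82.5. The library labelled knockout with forskolin held only 0.609 M estimated reads.

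The large cargo and processing genes had smaller ratios. Chga was at 8791 and 16559 FPKM in wild type without and with forskolin and at 5704 and 10927 in the libraries labelled knockout. Chgb read 554 and 865, then 524 and 604, and Scg2 read 1299 and 1906, then 1362 and 1315. Scg2 was thus 1.47-fold its control with forskolin in wild type but 0.965-fold in the libraries labelled knockout. Chgb was 1.56-fold and 1.15-fold, and Chga 1.88-fold and 1.92-fold. For Scg2 and Chgb the counting ranges of the genotypes did not overlap, and this difference has no replicate check. All 3 granins stayed within 2-fold. Pcsk1 (190 and 305, then 171 and 228), Pcsk2 (1382 and 1837, then 1030 and 1243), Cpe (891 and 742, then 1049 and 830) and Slc30a8 (466 and 442, then 311 and 412) did so too.

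Without forskolin the libraries labelled knockout and wild type differed little. Of 36 genes 1 was past 2-fold higher, Cplx1 at 1.89 against 0.440 FPKM on 23 and 2 estimated reads, and 0 were lower, against 4.25% and 1.94% of all genes. The median was -0.29 against -0.05 for all genes, and 29 of the 36 genes were lower in the library labelled knockout, from -0.66 for Vamp2, the vesicle SNARE. The beta cell markers, above, were also lower in that library by their sum and their median. Of the 103 further exocytosis genes 79 were kept in wild type. With forskolin 6 were past 2-fold higher and 3 lower, against 9.85% and 7.07% of all genes. In the libraries labelled knockout it was 7 and 3 of 82, against 12.5% and 11.9%. Cck went from listed at 0 to 45.3 FPKM in wild type and from 0.371 to 45.4 in the libraries labelled knockout.

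**Figure D3:**
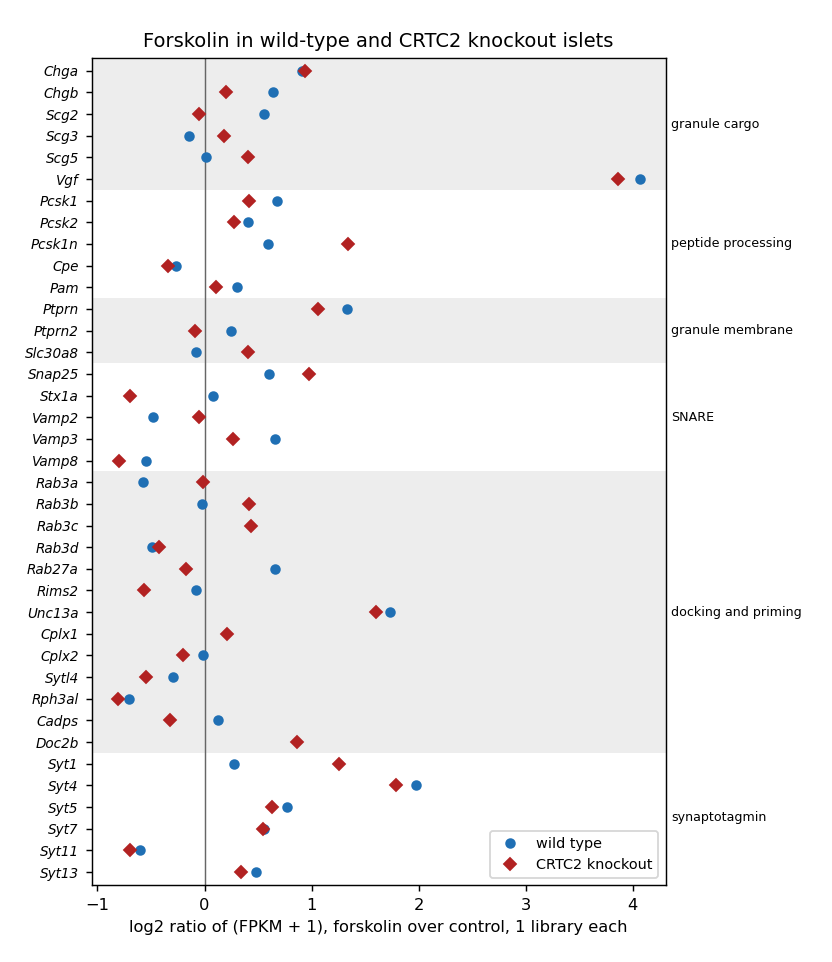
Log2 ratio of FPKM + 1 with over without forskolin (horizontal axis) for each gene, in wild-type islets (blue circles) and islets labelled CRTC2 knockout (red diamonds), 1 library per point. The symbols of Vgf, Syt4, Unc13a and Ptprn lie beyond 1 in both genotypes, with Vgf at 4.06 and 3.86.

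In the inhibitor experiment on INS-1 cells, Vgf was higher and Syt7, Syt4 and Syt5 were lower with either inhibitor than with forskolin alone, by amounts that differed between JQ1 and A-485. There was 1 library per condition, and the comparisons of forskolin with control, JQ1 and A-485 share the forskolin library, so an error in it would enter all of them. With forskolin alone 4 of 37 genes were at least 2-fold higher and 1 lower, against 5.23% and 4.44% of all genes. They were Syt4 (22.9 to 149 FPKM, 6.49-fold), Vgf (376 to 1154, 3.07-fold), Syt7 (332 to 714, 2.15-fold) and Pcsk1n (0 to 3.35, 12 estimated reads), and the small GTPase Rab27a was lower (3.96 to 1.32 on 43 and 14 estimated reads). The same 3 genes that limma called in the replicated INS-1 table were thus past 2-fold in this experiment's libraries.

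Adding JQ1 brought Vgf from 1154 to 6349 FPKM, 5.50-fold above forskolin alone (5.39 to 5.61 for counting error). Stx1a, the target-membrane SNARE, was 2.11-fold higher with JQ1, at 106 against 50.2 FPKM with forskolin and 49.3 in the control. Syt7 was 2.91-fold lower (714 to 245 FPKM), as was Rph3al 2.72-fold (105 to 38.5), and Pcsk1n was listed at 0. In all, 2 of 37 genes were past 2-fold higher and 3 lower, against 8.24% and 7.77% of all genes, with a median of -0.07 against -0.05. Syt4, at 93.3 FPKM with JQ1, was within 2-fold of its forskolin level and above the control.

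Adding A-485 left 13 of 37 genes at least 2-fold lower than with forskolin alone, against 9.57% of all genes, and 2 higher, against 5.43%. The median was -0.70 against 0.01 for all genes, and 30 of the 37 were negative. Of the 5 synaptotagmins kept 4 were past 2-fold lower, Syt7 from 714 to 116 FPKM (6.15-fold), Syt4 from 149 to 27.4 (5.43-fold), Syt13 from 50.1 to 17.9 (2.80-fold) and Syt5 from 404 to 189 (2.13-fold). With A-485 Syt4 was close to its control level of 22.9 FPKM, whereas Syt7 and Syt13 lay below their control levels of 332 and 39.7.

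Docking, membrane, processing and cargo genes were also among the 13. Rph3al was 2.86-fold lower (105 to 36.7 FPKM), the granuphilin gene Sytl4 2.39-fold (99.7 to 41.7) and the complexin Cplx2 2.33-fold (479 to 205). Slc30a8 was 2.48-fold lower, at 126 FPKM against 313 with forskolin and 341 in the control, and Ptprn was 2.01-fold lower (319 to 158). Pam was 2.36-fold lower (239 to 101 FPKM), the granin Scg3 2.35-fold (353 to 150) and Chgb 2.02-fold (2488 to 1231); Pcsk1 went from 12.0 to 5.02. With a pseudocount of 5, 11 genes stayed past 2-fold lower. The share of all genes at that setting is not given here.

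Vgf went the other way with A-485, at 1523 FPKM against 1154 with forskolin, within 2-fold. Pcsk1n (3.35 to 9.82) and the calcium sensor Doc2b (0.342 to 1.84, on 2 and 16 estimated reads) were past 2-fold higher. Chga ran 5196, 6239, 6871 and 4215 FPKM over control, forskolin, JQ1 and A-485, Scg2 300.5, 317.6, 270.8 and 174.0, Pcsk2 556, 749, 676 and 399, and Cpe 1328, 1838, 1710 and 1133. These 4 abundant genes stayed within 2-fold of the forskolin library under both inhibitors. The forskolin-induced Crem ran 12.1, 421, 336 and 76.5 FPKM over the same libraries, Nr4a1, an immediate early receptor gene, 14.4, 371, 616 and 692, and Neurod1 137, 44.5, 83.1 and 4.63. The beta cell markers (7 of 9 listed, at most 1 at 0) summed to 63194, 82547, 83009 and 48320 FPKM, with medians of 417, 545, 570 and 101; their part in the A-485 values was not tested. Of the 103 further exocytosis genes 2 were past 2-fold higher and 0 lower with forskolin (of 70), against 5.23% and 4.44% of all genes. With JQ1 it was 7 and 3 (of 70), against 8.24% and 7.77%. With A-485 it was 4 and 7 (of 71), against 5.43% and 9.57%. Cck went from 39.5 to 363 with forskolin and was at 142 with JQ1 and 43.1 with A-485.

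**Figure D4:**
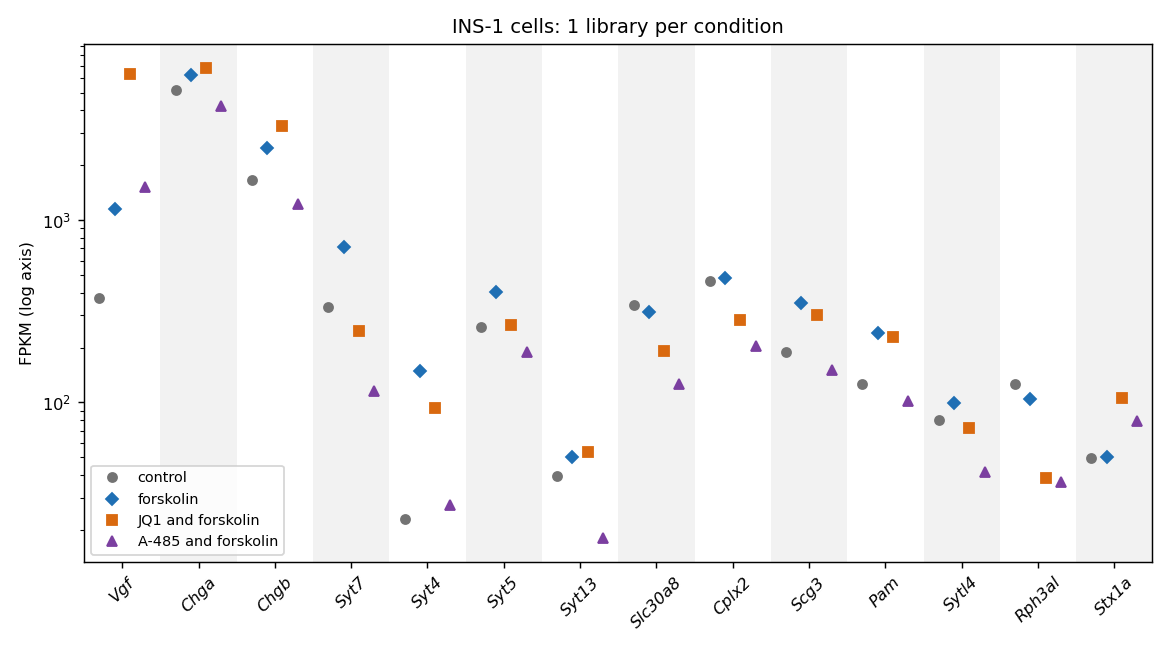
FPKM on a log axis of 14 genes in INS-1 cells, 1 library per condition (grey control, blue forskolin, orange JQ1 with forskolin, purple A-485 with forskolin). Vgf is highest with JQ1 at 6349 FPKM, while Syt7, Syt4 and Syt13 are lowest or near the control with A-485.

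In AR42J cells NeuroD1 went with levels at least 2-fold higher for some genes of every role. Neurod1 itself was at 3.44 and 5.67 FPKM in the GFP libraries and 3323 and 3834 in the NeuroD1 libraries. Of 34 genes kept, 12 were at least 2-fold higher without forskolin and 1 lower, against 6.81% and 4.74% of all genes, with a median of 0.68 against -0.01. Ins2 and Gcg were listed at 0 in all 4 libraries, and Ins1 was at 1.49 FPKM with NeuroD1 and forskolin and at 0 elsewhere. The summed beta cell markers (8 of 9 listed, 4 or 5 at 0) were at 9.08 and 12.8 FPKM with GFP and 15.9 and 21.1 with NeuroD1. The summed acinar markers (12 of 13 listed, 0 to 2 at 0) were at 45353 and 49062 FPKM with GFP and 22421 and 25118 with NeuroD1. The part of these marker differences in the values below was not tested.

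The Rab3 isoform Rab3b went from 0.282 FPKM (1 estimated read) to 59.8, a ratio of 212 with a counting range that starts at 42.3. Pcsk1 was listed at 0 with GFP and at 10.3 FPKM with NeuroD1. Slc30a8 was 17.0-fold higher (0.738 to 12.6 FPKM, on 3 and 47 estimated reads, range 5.98 to 93.4). Rab3b and Slc30a8 rested on 1 and 3 estimated reads with GFP and Pcsk1 on 0, so the size of each difference is loosely set. Among better measured genes, Scg2 was 7.15-fold higher (4.30 to 30.7 FPKM), Syt4 5.78-fold (2.08 to 12.0), Cplx2 5.34-fold (18.6 to 99.4) and Syt5 4.74-fold (39.5 to 187).

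Cpe was 3.51-fold higher with NeuroD1, at 1199 against 341 FPKM, which placed it above Chga (587 to 709) and Chgb (905 to 661) in those cells. The chaperone of Pcsk2, Scg5 (35.1 to 125 FPKM, 3.56-fold), and Pcsk2 itself (26.6 to 55.6, 2.09-fold) were both higher, as were Vamp8 (24.6 to 69.7, 2.83-fold) and Ptprn (49.4 to 124, 2.51-fold). Doc2b was the 1 gene past 2-fold lower, from 11.6 to 3.89 FPKM on 67 and 19 estimated reads. Vgf was near the detection floor in both, at 0.868 and 0.883 FPKM. Of 64 further exocytosis genes 5 were past 2-fold higher and 1 lower, against 6.81% and 4.74% of all genes. The vesicle marker Syp was among the 5 (53.6 to 160 FPKM).

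With forskolin few of these genes passed 2-fold in AR42J. In GFP cells 1 of 33 was past 2-fold higher, Slc30a8 (0.738 to 3.35 FPKM, on 3 and 14 estimated reads), and 0 lower, against 1.16% and 0.721% of all genes; in NeuroD1 cells 0 of 35 were past 2-fold either way, against 1.30% and 1.25%. Syt4 went from 2.08 to 3.02 and from 12.0 to 14.2 FPKM, and Vgf from 0.868 to 2.39 and from 0.883 to 2.40. In plain FPKM Vgf was thus past 2-fold in both, and the added 1 kept it from being called. It rested on 8 and 21 estimated reads with GFP and on 7 and 16 with NeuroD1. Crem, the response check, went from 1.97 to 5.93 and from 5.48 to 17.2 FPKM.

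**Figure D5:**
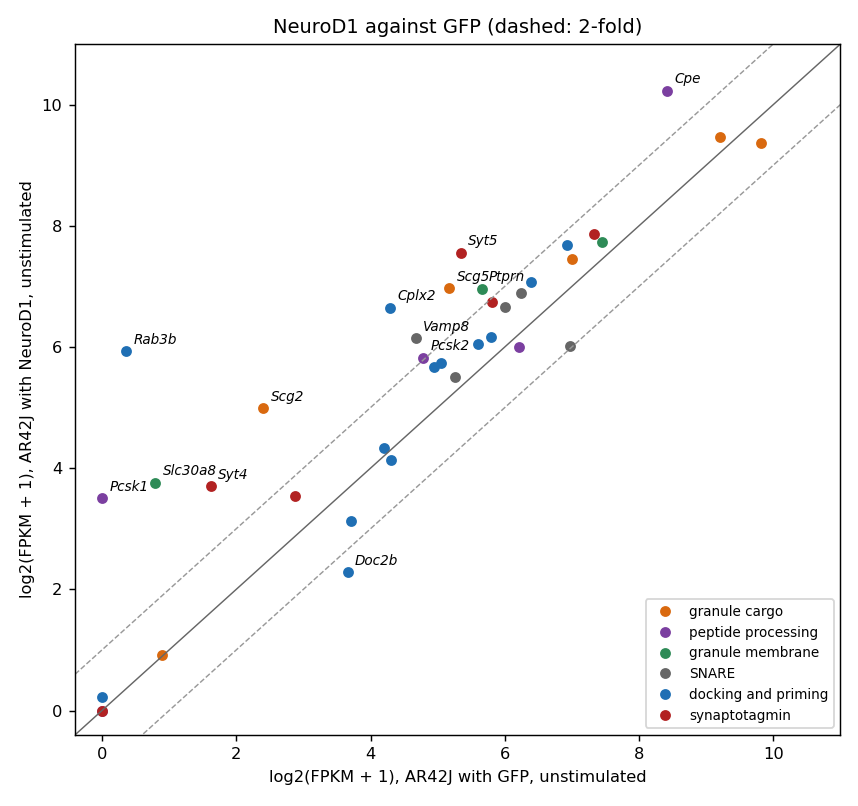
Log2 of FPKM + 1 in unstimulated AR42J cells with NeuroD1 (vertical axis) against GFP (horizontal axis), 1 library each, coloured by role; dashed lines mark 2-fold and named genes lie beyond them. Rab3b, Pcsk1, Slc30a8 and Scg2 lie farthest above the diagonal and Doc2b below it.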

How the data were processed

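Gene expression was measured by RNA sequencing (TRIzol, RNeasy columns, a directional NEBNext kit, per the labels). The replicated tables hold log2 expression values made by the authors with HOMER analyzeRepeats over RefSeq exons (mm10, rn6) and getDiffExpression, per the file headers, with the authors' log2 fold changes, p-values and exon lengths; the values are compressed against those fold changes. The other 3 tables hold FPKM as deposited, a unit read from the values, and the number of estimated reads per gene came from the value 1 read takes in each library. The submitters' processing notes name TopHat2 2.0.9, STAR, HOMER and DESeq2; no source used here says which aligner made which table.

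Log2 values were fitted with limma 3.58.1 in R 4.3.3 (variance trend, group mean of at least 1, Benjamini-Hochberg adjustment over all genes), 2 against 2. On simulated data with islet spread, 35 of 50 genes raised by 2 (log2) and 4 of 50 raised by 1 were recovered; with INS-1 spread 46 and 31. FPKM were compared as ratios with a pseudocount of 1, kept at 1 FPKM or more in the higher library, called at 2-fold, with no test. Intervals cover counting error only, since PCR copies cannot be told from separate molecules. Values per library are given for genes called or past 2-fold anywhere and for 8 genes always (Chga, Chgb, Scg2, Vgf, Pcsk1, Pcsk2, Cpe, Slc30a8). The members, lists and motifs were chosen with earlier results of these data known.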

Additional observations from a re-analysis of the deposited data

Results flagged for a closer look

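Vamp2, the granule SNARE, and the GTPase Rab27a had differences of opposite sign in islets and INS-1 cells, with both forskolin libraries on the same side of both controls in each system. The difference of Vamp2 was -0.23 on the log2 scale in islets and 0.33 in INS-1; that of Rab27a was 0.41 in islets and -0.18 in INS-1. No limma call was made for either gene in either system, and the difference between the systems was not tested. In islets 23.0% of all genes had both forskolin libraries above both controls and 23.2% both below. In INS-1 these shares were 23.8% and 24.6%, so such separation was common. How many of all genes separated in opposite directions in islets and INS-1 was not counted.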

How the results depend on the processing

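The labels number the libraries, but nothing says that a number marks a shared culture. Control 1 minus control 2 was correlated, over all genes tested, with forskolin 1 minus forskolin 2. The correlation was -0.05 in islets and 0.44 in INS-1. With the replicate number as a block, calls over all genes went from 268 to 787 in islets and from 446 to 1465 in INS-1, and genes of the 38 called higher from 1 to 2 (Syt4 and Vgf, Vgf with an adjusted p of 1.30e-06) and from 3 to 8. Without a variance trend all-gene calls were 171 and 226. A group mean of at least 5 gave 2 higher in islets, again Syt4 and Vgf, against 322 of all 7818 genes tested at that setting. Leaving out 1 library gave all-gene calls of 125 to 2835 in islets (2835 without forskolin 2, 883 without forskolin 1) and 263 to 515 in INS-1, 0 to 6 genes higher and 0 to 4 lower in islets, and 1 to 3 higher in INS-1.

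In the 1-library tables a pseudocount of 5 gave 0 higher for knockout against wild type, A-485 and AR42J with GFP, and 0 lower for forskolin in INS-1 and for NeuroD1. A pseudocount of 0.1 gave 2 lower for forskolin in INS-1, and 2 and 1 higher for forskolin in AR42J with GFP and NeuroD1. At 5 FPKM or more these were 0 higher for the knockout, 0 lower for forskolin in INS-1, 1 higher for A-485 and 0 higher for AR42J with GFP. The shares of all genes at these other settings are not given here, so these counts have no background beside them.

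Signs turned for differences that had not passed: leaving out 1 library, islet Chga ran from -0.91 to 0.62 (0.62 without forskolin 1), Pcsk2 from -0.30 to 0.27 (0.13 without control 1, 0.27 without forskolin 1) and Slc30a8 from -0.050 to 0.10 (-0.050 without control 1); under quantile normalisation islet Cpe was -0.063 (0.32 before) and Slc30a8 -0.41, and INS-1 Scg2 -0.14, Pcsk1 -0.098 and Cpe -0.049 (0.27 before), while INS-1 Chga and Chgb came to 0. Without islet forskolin 2, Chga (-0.91), Scg2 (1.06) and Pcsk1 (0.68) passed. A 0 under quantile normalisation can come from an unchanged rank, so it does not show that a rise was lost. The cause of the sign changes was not tested.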
